A study of Mus musculus with 2 samples.

Results

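The mitochondrial protein import genes were taken from the deposited expression table by symbol. They are the Tomm and Timm genes, named after the TOM and TIM translocases, with Timmdc1 and Immt, which do not encode translocase subunits. The import motor genes Pam16, Dnajc19, Grpel1 and Grpel2 and the peptidase genes Pmpca, Pmpcb, Immp1l and Immp2l complete the set. This gave 35 genes of the 50508 in the table. The set was put together with results of these data known, among them the high value of Immp1l in the library labelled Mettl8 siRNA, so the difference of Immp1l is given as a description.

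Nearly all mitochondrial proteins are made in the cytosol and carried across the outer and inner membranes. The TOM complex is the entry gate of the outer membrane; small TIM chaperones guide hydrophobic proteins through the intermembrane space; the TIM22 complex inserts carrier proteins into the inner membrane; and the TIM23 complex passes proteins with a presequence to the matrix, pulled in by a motor built around the chaperone mtHsp70. Peptidases then cut off the targeting sequence.

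The cells were E14, a mouse embryonic stem cell line of strain 129/Ola, at passages 15 to 18, kept undifferentiated on gelatin by LIF (1000 U/ml) in medium containing 15% serum. They received either a scramble siRNA or an siRNA against Mettl8 with a lipid reagent, and total RNA was taken 72 h later; no genetic change is given for either group. Each group is 1 library, although the series record names triplicates, and whether a library pools several cultures is not given in the sources used here. Values are FPKM, reads scaled to gene length and library size, so levels can be compared between genes only as far as the deposited lengths hold.

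The targeted gene Mettl8 stood at 0.67 FPKM with the scramble siRNA label and at 100.3 FPKM with the Mettl8 siRNA label, which goes against the latter. Directions below compare the library labelled Mettl8 siRNA with the scramble one. Reads rebuilt from the values came to 22211850 and 21420340 over the genes of the table, and the import genes held 0.160% and 0.168% of them. All 10 stem cell markers were at 17.5 FPKM or more in both libraries, with a summed level of 1397 and 1362 FPKM. None of 8 fibroblast, 5 endoderm, 4 mesoderm, 3 trophectoderm or 3 blood markers had a mean of 1 FPKM, and the blood markers Hba-a1 and Hbb-bt were listed at 0 in both. Of 4 neuroectoderm markers, Tubb3, Pax6 and Neurod1 had a mean of at least 1 FPKM, and the list summed to 21.7 FPKM in both libraries. In bulk RNA, fewer cells of a type and less RNA per cell cannot be told apart.

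With 1 library per group there is no spread between cultures and no test. Intervals of a level are exact Poisson intervals and intervals of a ratio exact Clopper-Pearson intervals, both at 95%. They cover counting error only, not the spread between cultures. The reads carry no molecular identifiers and are not separate molecules, so the intervals may be too narrow even for counting error. Differences are in log2(FPKM + 1), a scale that understates changes of low genes.

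Transcripts of the import machinery were present in both libraries. Of the 35 genes, 33 had a mean of at least 1 FPKM, and none was listed at 0. Tomm20l and Timm8a2 were the exceptions, at 0.35 and 0.30 FPKM and at 0.42 and 0.63 FPKM, from 5 to 16 reads each. Tomm70a stood highest at 60.1 and 62.8 FPKM, followed by Tomm22, Tomm7, Tomm5 and Timm8b in both libraries. Together the 35 genes summed to 481.5 and 508.0 FPKM.

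**Figure D1:**
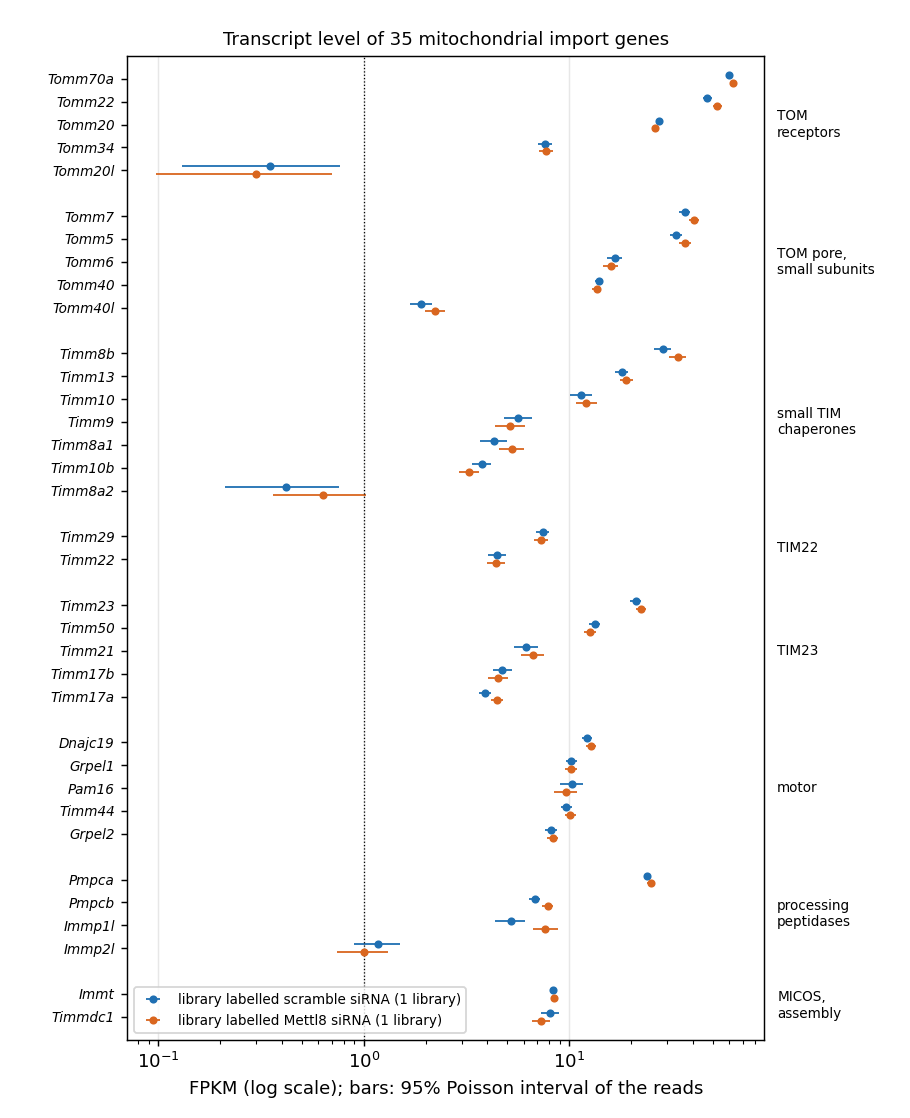
Transcript level of each of the 35 import genes, grouped by complex, in FPKM on a log axis; points are the library labelled scramble siRNA (blue) and the library labelled Mettl8 siRNA (orange), and bars are exact Poisson intervals of the reads. Levels run from 0.30 FPKM for Tomm20l to 62.8 FPKM for Tomm70a, and the differences between genes are far wider than those between the libraries.

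Differences between the libraries were small. Of the 33 genes with a mean of at least 1 FPKM, 20 were higher and 13 lower, with a median difference of 0.06 on the log2 scale. This median was 0.14 with a common FPKM sum for both libraries, 0.025 with the median of abundant protein-coding genes set to 0, and 0.020 without the 10 genes whose reads may be shared with an overlapping gene or a near-identical copy. Across the 9965 protein-coding genes past the same filter, 5432 stood higher and 4430 lower, and the median difference was 0.01. A fixed rule of size, 1.2-fold on the log2(FPKM + 1) scale, found 1 import gene higher, Immp1l, and 0 lower. The same rule found 4.48% of all genes higher and 5.01% lower, and 1.03% and 1.58% of protein-coding genes. The choice of the set used this contrast, so nothing is read from the count.

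The counting interval of the ratio lay above 1 for 8 of the 33 genes and below 1 for 0. Over all genes these shares were 11.6% and 7.82%, and over protein-coding genes 13.8% and 8.73%. The 8 genes were Tomm70a, Tomm22, Tomm5, Tomm7, Timm8b, Timm17a, Pmpcb and Immp1l. They include the 5 genes with the highest FPKM, but the width of an interval follows the reads. Timm8b, with 421 and 485 reads, had an interval of 1.03 to 1.35. Tomm20, lower in FPKM but with 3805 and 3585 reads, had an interval of 0.921 to 1.009, which held 1. The FPKM sum over all genes was 623735 with the scramble siRNA label and 584527 with the Mettl8 siRNA label. For protein-coding genes it was 142874 and 144041, so the fall lies outside them. A common FPKM sum for both libraries shifted the median over all genes from 0.01 to 0.09 and left 28 of the 33 import genes higher, turning Tomm20, Tomm40, Tomm6, Timm22, Timm29, Timm50, Timm17b and Grpel1. With the median of abundant protein-coding genes set to 0 instead, 17 were higher, and Tomm34, Grpel2 and Immt turned lower.

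**Figure D2:**
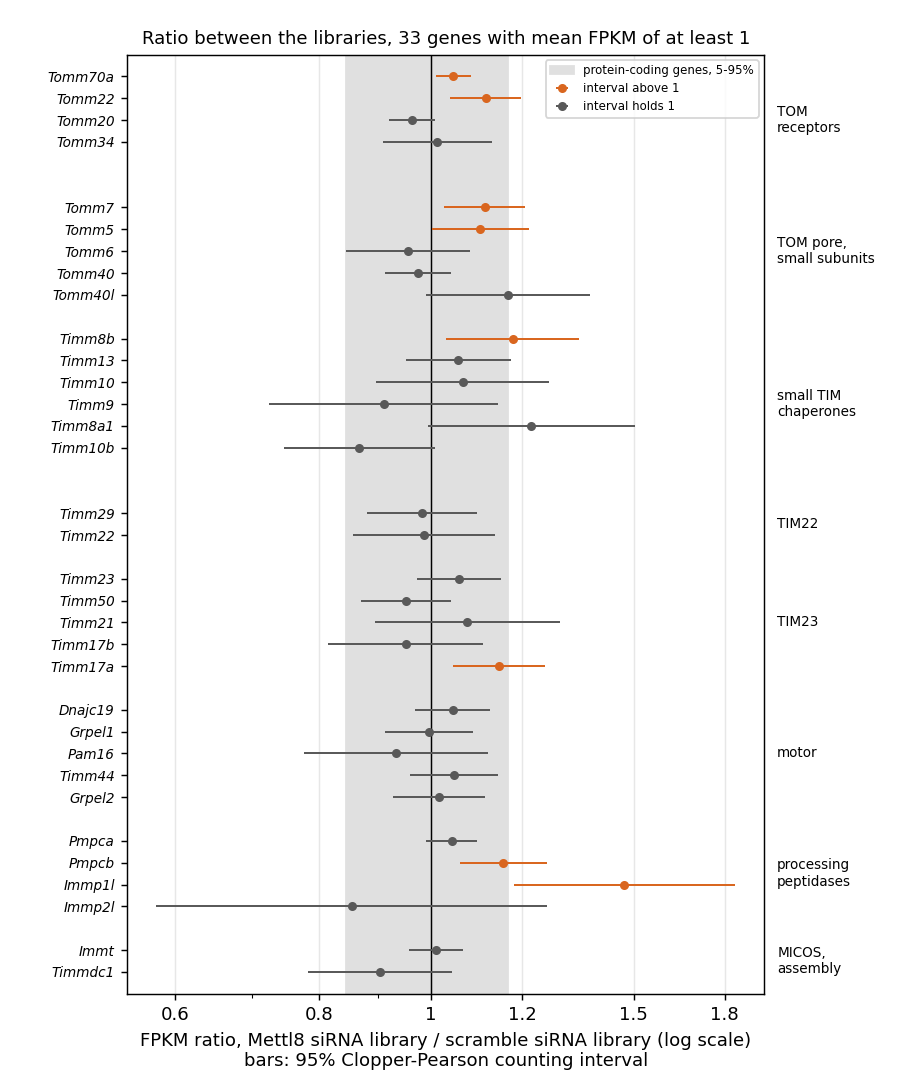
FPKM ratio of the library labelled Mettl8 siRNA to the library labelled scramble siRNA for the 33 import genes with a mean of at least 1 FPKM, on a log axis; bars are Clopper-Pearson counting intervals, orange where they lie above 1, and the grey band spans the 5th to 95th percentile of protein-coding genes, 0.844 to 1.17. Immp1l, at 1.47, lies farthest from 1, and most genes lie inside the band.

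The TOM receptors, which recognise precursor proteins at the mitochondrial surface, were the most abundant group, with a summed level of 142 and 149.6 FPKM. This sum includes Tomm34, whose product is cytosolic, and the low gene Tomm20l. Tomm70a, the receptor for carrier precursors delivered by cytosolic chaperones, was 60.1 FPKM (58.6 to 61.5) and 62.8 FPKM (61.3 to 64.4), a ratio of 1.05. Tomm22, the central receptor that also holds the complex together, was 47.0 FPKM (44.7 to 49.5) and 52.5 FPKM (49.9 to 55.1), a ratio of 1.12 (1.04 to 1.198). Tomm20, the receptor for presequences, was 27.3 and 26.3 FPKM, a ratio of 0.964 (0.921 to 1.009). So Tomm22 and Tomm20, receptors of the same complex, stood on opposite sides of 1, though Tomm20 turned higher with a common FPKM sum, and the intervals of their ratios did not overlap. Tomm34, a cytosolic co-chaperone of import, was 7.63 and 7.73 FPKM.

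Among the pore and small subunits, the pore gene Tomm40 was lower in FPKM than its small partners Tomm7 and Tomm5. It was also lower than Tomm6, whose level is uncertain. This order rests on the deposited lengths, 4513 bases for Tomm40, 1125 for Tomm7 and 868 for Tomm5. In reads not divided by length it turns: Tomm40 had 1792 and 1708, Tomm7 1167 and 1271, and Tomm5 820 and 885. Tomm40, which forms the channel, was 13.95 FPKM (13.3 to 14.6) and 13.6 FPKM (12.97 to 14.3). Tomm7, a small subunit that modulates assembly, was 36.5 FPKM (34.4 to 38.6) and 40.6 FPKM (38.4 to 42.9), a ratio of 1.11 (1.03 to 1.21). Tomm5, another small subunit of the pore, was 33.2 FPKM (30.96 to 35.6) and 36.7 FPKM (34.3 to 39.2), a ratio of 1.104 (1.003 to 1.22). Tomm7 and Tomm5 were the higher pair in FPKM in both libraries, well apart from Tomm6 at 16.6 and 15.9 FPKM. Exons of Tomm6 overlap those of other genes over 84.2% of their length, among them the same-strand gene Gm21981, so its level is uncertain. Tomm40l, a paralog of the pore gene, was 1.90 and 2.22 FPKM; 64.3% of its exon bases lie opposite exons of Nr1i3, and without a known strand setting the reads of the 2 genes cannot be told apart.

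The upstream sequence of Tomm40 is shown because it held more CCAAT boxes than that of any other import gene matched. A CCAAT box is the core of the site bound by the factor NF-Y. In the RefSeq promoter windows (GRCm38.p6, 250 bases before to 50 after a start), Tomm40 held 5 matches to CCAAT on either strand, and 0.271% of all 32851 windows held as many or more. The stretch lies at chr7:19715440-19715654 on the minus strand, ahead of the first exon, and the capitals mark the boxes.
Tomm40 upstream: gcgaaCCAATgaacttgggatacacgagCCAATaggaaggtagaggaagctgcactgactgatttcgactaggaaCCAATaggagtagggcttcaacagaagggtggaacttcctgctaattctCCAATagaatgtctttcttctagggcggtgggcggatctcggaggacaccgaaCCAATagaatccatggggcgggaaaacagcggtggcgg
All 5 boxes lie in the same orientation. A match describes letters only, and the level of Tomm40 differed between the libraries by less than its counting interval, with a ratio of 0.975 (0.912 to 1.04).

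The small TIM chaperones, which escort hydrophobic proteins between the membranes, were the most spread group of those with at least 5 genes, with a standard deviation of the difference over its 6 measured genes of 0.17, beside 0.11, 0.10, 0.09 and 0.06 in the others. This group also had the fewest reads of these, 2117 and 2178, beside 3536 and 3595 in the next lowest, TIM23. How much of the spread is counting error was not tested. Timm8b, on the plus strand at chr9:50603910-50605320, was 28.6 FPKM (25.9 to 31.4) and 33.7 FPKM (30.7 to 36.8), from 421 and 485 reads, a ratio of 1.18 (1.03 to 1.35). Timm8a1, the ortholog of the human deafness dystonia gene, was 4.30 FPKM (3.69 to 4.99) and 5.26 FPKM (4.57 to 6.03), a ratio of 1.22 (0.995 to 1.504). Timm13, the partner of Timm8a1 in a hexamer, was 18.0 and 19.0 FPKM. Timm8b, Timm8a1 and Timm13 were each higher in the library labelled Mettl8 siRNA, and of these only Timm8b had an interval above 1. Timm8b shares 15.6% of its exon bases with a gene on the other strand, and a transcribed pseudogene, Gm9797, matches 43.1% of the Timm8a1 transcript.

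TIMM9 and TIMM10 build another hexamer. Timm10 was 11.4 and 12.1 FPKM. Timm9 was 5.66 FPKM (4.83 to 6.60) and 5.16 FPKM (4.35 to 6.06), a ratio of 0.912 (0.724 to 1.15). Timm10b, which docks the chaperones on the TIM22 complex, was 3.75 and 3.25 FPKM, a ratio of 0.867 (0.746 to 1.009). Its difference, -0.16, was the lowest of all 33 genes with the pseudocount of 1. The low gene Immp2l had a lower ratio, 0.855. With a pseudocount of 0.1 its difference was also lower, -0.207 beside -0.201 for Timm10b. Exons of Timm10b overlap those of other genes over 22.1% of their length. Median differences were 0.08 for the 6 measured small TIM genes, with 4 higher and 2 lower.

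The TIM22 genes, whose products insert carriers into the inner membrane, were close between the libraries. Timm22, the channel, was 4.45 and 4.39 FPKM, and Timm29, a metazoan subunit, 7.43 and 7.30 FPKM. Both differences, -0.02 for each, were far inside their counting intervals.

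TIM23 genes had 3 of 5 members higher and a median difference of 0.08. Timm23, the channel, was 21.1 and 22.3 FPKM; the predicted gene Gm10273 matches 95.6% of its transcript at up to 99.9% identity and was listed at 0, so reads of the pair may be split by rules not given here. Timm50, the receptor that receives presequences from TOM, was 13.3 and 12.6 FPKM, a ratio of 0.951 (0.870 to 1.04). Timm21, which links the complex to TOM and to the respiratory chain, was 6.17 and 6.64 FPKM. Timm17a, a subunit known to be degraded under stress, was 3.89 FPKM (3.64 to 4.16) and 4.46 FPKM (4.18 to 4.75), a ratio of 1.15 (1.05 to 1.26), and its paralog Timm17b 4.73 and 4.50 FPKM.

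The motor genes were the most alike between the libraries among complexes with at least 5 members, with differences from -0.09 to 0.06. Dnajc19, a J protein that stimulates mtHsp70, was 12.2 and 12.8 FPKM. Pam16, a J-like protein that restrains it, was 10.3 and 9.61 FPKM; the predicted gene Gm9803 matches 89.6% of its transcript with stretches of 100% identity, so its reads are uncertain. Timm44, which tethers the chaperone at the channel exit, was 9.67 and 10.1 FPKM. The nucleotide exchange factor genes Grpel1 and Grpel2 were 10.2 and 10.2 FPKM and 8.17 and 8.30 FPKM. These 5 genes lay between 8.17 and 12.8 FPKM, while Hspa9, the gene of mtHsp70 itself and outside the set, was 87.9 and 91.5 FPKM.

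The processing peptidases held the gene with the largest difference. Immp1l codes for a catalytic subunit of the inner membrane peptidase, which cleaves sorting signals of intermembrane space proteins. It lies on the plus strand at chr2:105904638-105965558 (GRCm38, ENSMUSG00000042670.5). It was 5.19 FPKM (4.37 to 6.12) in the library labelled scramble siRNA and 7.64 FPKM (6.63 to 8.77) in the library labelled Mettl8 siRNA. These levels rest on 141 and 203 reads and give a ratio of 1.47 (1.18 to 1.84) and a difference of 0.48. Of 5176 protein-coding genes with a mean of at least 5 FPKM, 7 including Immp1l had a difference at least as large. Among 1490 protein-coding genes with a read number within 1.5-fold of its own, 4 including Immp1l reached its ratio and 2 were at least as far on the lower side. The high value of Immp1l was known when the set was chosen, so these ranks restate that choice and nothing is read from them. The processed pseudogene Gm8121 matches 52.3% of its transcript at up to 99% identity and was 0.56 and 0.43 FPKM, a step in the opposite direction.

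The partner subunit gene Immp2l was low, at 1.17 FPKM (0.895 to 1.503) and 1.00 FPKM (0.745 to 1.32), from 61 and 51 reads, a ratio of 0.855 (0.578 to 1.26). This interval overlaps that of Immp1l, but an overlap alone does not settle whether the 2 ratios differ, and their difference was not tested. The processing peptidase that cuts matrix targeting signals is made of the subunits PMPCA and PMPCB. Pmpcb, the catalytic subunit gene, was 6.79 FPKM (6.37 to 7.22) and 7.85 FPKM (7.40 to 8.33), a ratio of 1.16 (1.06 to 1.26). Pmpca, the other subunit gene, was 23.9 FPKM (23.0 to 24.8) and 24.9 FPKM (24.0 to 25.8), a ratio of 1.04 (0.990 to 1.098). The transcript of the catalytic subunit was thus the scarcer of the pair in both libraries. Exons of Pmpca overlap those of Inpp5e on the other strand over 20.4% of their length.

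Immt and Timmdc1 are not translocase subunits. Immt, which encodes the cristae junction protein mitofilin, was 8.35 and 8.43 FPKM. Timmdc1, an assembly factor of respiratory complex I despite its Timm-like name, was 8.07 FPKM (7.31 to 8.90) and 7.29 FPKM (6.56 to 8.09), a ratio of 0.903 (0.782 to 1.04).

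The balance within pairs of related genes was compared as the share of the pair's FPKM. Timm17b held 54.9% (51.7 to 57.95) of the Timm17 pair in the library labelled scramble siRNA and 50.2% (47.0 to 53.4) in the other. The interval left out 50% in the scramble library and not in the other, but the intervals overlap each other. Grpel1 held 55.6% and 55.2% of the Grpel pair, and Dnajc19 held 53.7% and 52.5% beside its paralog Dnajc15. This balance rests on the deposited gene lengths for the Timm17 and Dnajc pairs: in reads not divided by length, Timm17b held 28.2% and 24.6% and Dnajc19 87.8% and 87.3%, while Grpel1 held 52.3% and 51.8%. Immp1l held 81.6% (76.5 to 85.9) and 88.4% (84.8 to 91.4) of the Immp pair. Its value was known when the set was chosen, so nothing is read from this step. Pmpca held 77.9% (76.6 to 79.1) and 76.0% (74.7 to 77.3) of the Pmpc pair.

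In the next pairs 1 gene held most of the summed FPKM. Tomm20 held 98.7% and 98.9% beside Tomm20l, and Tomm40 held 88.0% (86.6 to 89.3) and 86.0% (84.5 to 87.4) beside Tomm40l. Timm8a1 held 91.1% and 89.3% beside Timm8a2, while Timm8b held 86.9% and 86.5% beside Timm8a1. Timm10 held 75.2% (72.1 to 78.1) and 78.9% (76.0 to 81.5) beside Timm10b, but 40.9% and 45.9% of the pair's reads, so the order of this pair turns without the length. In all 10 pairs the intervals of the 2 libraries overlapped.

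**Figure D3:**
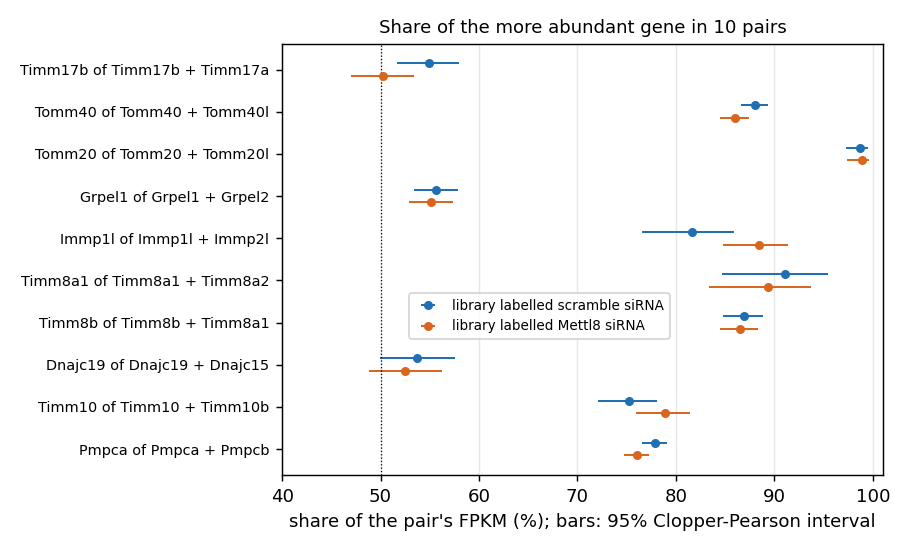
Share of the more abundant gene in the summed FPKM of 10 gene pairs, in percent, in the library labelled scramble siRNA (blue) and the library labelled Mettl8 siRNA (orange); bars are Clopper-Pearson intervals rescaled by gene length. The Timm17, Grpel and Dnajc pairs sit near the dotted line at 50% on this length-scaled measure. In reads, though, Timm17b held 28.2% and 24.6% and Dnajc19 87.8% and 87.3%. The Immp pair shows the widest step, from 81.6% to 88.4%. The value of Immp1l was known when the set was chosen, so nothing is read from this step.

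Several import genes start close to a gene on the opposite strand, an arrangement in which both genes can share a promoter. In the RefSeq starts, 7 of the 31 import genes matched there had such a neighbour in the table within 1000 bases, 6 of them protein-coding. Immp1l starts 73 bases from Elp4, a subunit gene of the Elongator complex that modifies transfer RNA. Elp4 was 3.34 and 3.29 FPKM, from 315 and 304 reads, a ratio of 0.985 (0.841 to 1.16). The value of Immp1l was known when the set was chosen, so the ratios of the 2 genes are given side by side and nothing is read from them.

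For the other protein-coding neighbours the values were as follows. Timm8b starts 51 bases from Sdhd, a subunit gene of succinate dehydrogenase, which was 46.1 and 49.3 FPKM, a ratio of 1.07 (0.997 to 1.14). Timm17b starts 66 bases from Pqbp1, a splicing factor gene, at 8.78 and 8.22 FPKM, while Timm23 starts 57 bases from Parg, a poly(ADP-ribose) hydrolase gene, at 8.71 and 8.93 FPKM. The ratios of Timm10b and Arfip2 were 0.867 and 0.985, and those of Timm9 and 2700049A03Rik 0.912 and 1.06. In these 5 pairs the intervals of the neighbours overlapped.

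The bases between the starts are shown for the 3 pairs whose stretch holds no annotated exon, since both genes of a pair were measured. They read 5′ to 3′ on the strand of the import gene, from chr2:105904565-105904637 for Immp1l, chr9:50603850-50603900 for Timm8b and chrX:7899270-7899335 for Timm17b (GRCm38.p6, all on the plus strand), with CCAAT boxes of either orientation in capitals.
Immp1l to Elp4: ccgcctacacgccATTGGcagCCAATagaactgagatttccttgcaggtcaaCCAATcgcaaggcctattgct
Timm8b to Sdhd: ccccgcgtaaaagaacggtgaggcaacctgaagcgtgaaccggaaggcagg
Timm17b to Pqbp1: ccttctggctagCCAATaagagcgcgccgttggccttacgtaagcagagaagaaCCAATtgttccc
The stretch at Immp1l holds 3 boxes, that at Timm17b 2 and that at Timm8b 0. Over the whole window of 300 bases Immp1l holds 4, and 1.06% of all windows hold as many or more.

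**Figure D4:**
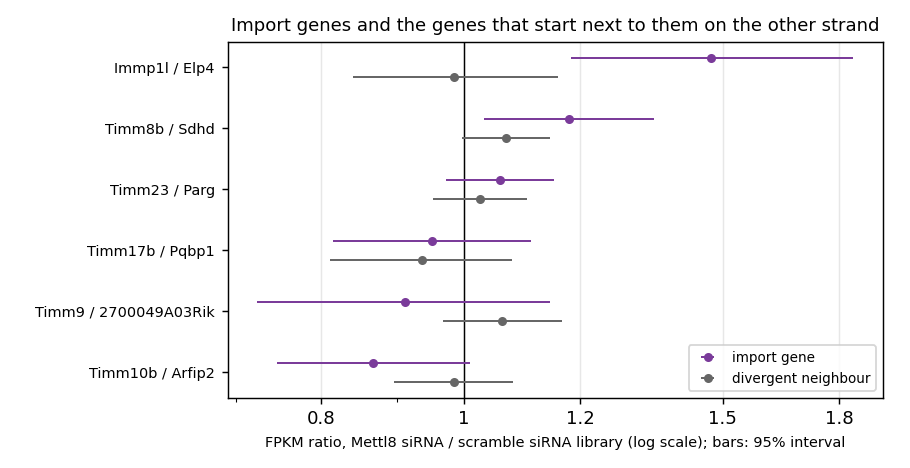
FPKM ratio between the libraries for 6 import genes (purple) and the protein-coding gene that starts next to each on the other strand (grey), on a log axis, with Clopper-Pearson counting intervals. Immp1l lies at 1.47 and its neighbour Elp4 at 0.985, and in the other 5 pairs the bars overlap.

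Other motifs in the promoter windows were counted on both strands as a description of the set. The ETS core CCGGAAGT, bound by factors such as GABPA, was found in 8 of 31 genes: Pmpcb, Timm10, Timm10b, Timm23, Timm29, Timm8a2, Timmdc1 and Tomm70a. That is 25.8%, beside 3.89% of all windows and 10.6% of 7782 protein-coding genes past the expression filter. Timmdc1 holds 2 matches, and the 100 bases before its start are shown because 1 of them ends at the base before the start. They are chr16:38522664-38522763 on the minus strand (GRCm38.p6), with that match in capitals.
Timmdc1 upstream: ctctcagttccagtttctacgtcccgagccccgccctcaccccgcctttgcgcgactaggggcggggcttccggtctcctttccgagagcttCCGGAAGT
Of the 8 genes with an ETS core, Pmpcb and Tomm70a had a ratio interval above 1, and the intervals of the other 6 held 1. Among those 6, Timm8a2 was below the expression filter, with 11 and 16 reads. Intervals lay above 1 for 8 of the 33 measured import genes, 13.8% of protein-coding genes and 11.6% of all genes. Nothing is read from the count among genes with an ETS core. The NRF1 core GCGCATGC was found in Grpel1 and Timm13, 6.45% beside 2.71% of all windows and 7.04% of the expressed protein-coding genes. The YY1 core AAGATGGCG was found in Immp1l and Timm50, 6.45% beside 1.40% and 4.32%. CCAAT boxes were found in 12 genes, 38.7% beside 37.4% and 44.3%, and the TATA box, TATAAA, in 3, 9.68% beside 13.6% and 7.62%. No match of 1 motif overlapped a match of another in the import genes.

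The import genes work with other proteins, of which 39 were measured from a list of companions. Their median difference was 0.05, with 25 higher and 14 lower. Mitochondrial ribosomal protein genes (78) had a median of 0.03 and nuclear genes of the respiratory complexes other than complex IV (65) also 0.03. The interval of the ratio lay above 1 for 10 companions and below 1 for 1, for 8 and 1 of the ribosomal protein genes and for 9 and 1 of the respiratory genes, beside 13.8% and 8.73% of protein-coding genes and 11.6% and 7.82% of all genes. These medians lie close to the 0.06 of the import genes, and no test sets them apart.

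Hspd1, which encodes the matrix chaperonin HSP60, was 191 and 225 FPKM, a ratio of 1.175 (1.15 to 1.201), and its co-chaperonin gene Hspe1 70.3 and 76.2 FPKM. Hspa9, the gene of mtHsp70, was 87.9 and 91.5 FPKM, a ratio of 1.04 (1.012 to 1.07). Of the metaxins, which act in outer membrane insertion, Mtx2 was 4.89 and 5.54 FPKM and Mtx1 8.32 and 7.57 FPKM. Dnajc15 was 10.5 and 11.5 FPKM. Pitrm1, the protease that degrades cut presequences, was 25.9 and 28.2 FPKM, and Yme1l1, an inner membrane protease, 26.0 and 28.3 FPKM. The 3 folding genes of the list, Hspd1, Hspe1 and Trap1 (42.4 and 45.5 FPKM), each had an interval above 1, as did 10 of the 39 companions in all. They rest on 2948 to 16515 reads, where intervals are narrow. Hspe1, Trap1 and Hspa9 are named in addition to the 6 companions with the largest differences. Apool, a cristae junction gene named after its value was seen, was 1.77 and 2.27 FPKM.

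Pink1 was the companion farthest from 1 on the lower side and the only one past 1.2-fold on the log2(FPKM + 1) scale; it is named after its value was seen. It encodes a kinase that is imported and degraded in healthy mitochondria and held at the TOM complex in damaged ones. Pink1 was 5.57 FPKM and 4.24 FPKM, from 424 and 315 reads, a ratio of 0.761 (0.655 to 0.881) and a difference of -0.33.

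**Figure D5:**
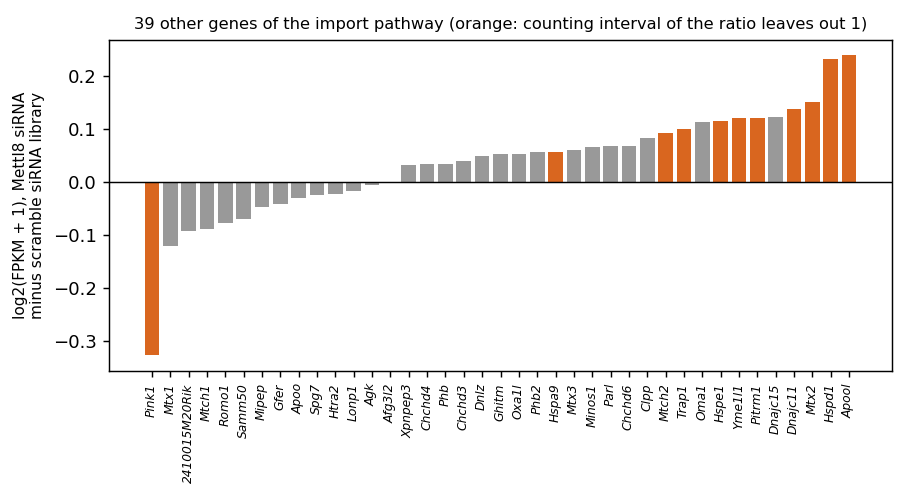
Difference in log2(FPKM + 1) between the library labelled Mettl8 siRNA and the library labelled scramble siRNA for 39 other genes of the import pathway, sorted; bars start at 0 and are orange where the counting interval of the ratio leaves out 1. Pink1 stands alone at -0.33, and Hspd1 and Apool mark the upper end at 0.23 and 0.24.

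Gene length was looked at because several of the genes with an interval above 1 are short. Of the 9 import genes with a deposited length under 1200 bases, 6 were higher, with a median difference of 0.14. This limit was chosen after the values were seen. The 6 include Tomm22, Tomm5, Tomm7, Timm8b and Immp1l, whose intervals above 1 prompted the question, so nothing is read from this count. Tomm22, Pam16 and Timm9 are short only by the deposited length, with 1651, 2435 and 4282 exon bases in GENCODE M21. Of 630 protein-coding genes under 1200 bases, 288 were higher, with a median of -0.02. Across the 33 import genes, which share both libraries, Spearman's rho between length and difference was -0.107, and between mean level and difference 0.194. Over protein-coding genes these were 0.0196 and 0.140.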

How the data were processed

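RNA-seq of 2 libraries, 1 per group, was analysed. The authors deposited FPKM values rounded to 2 decimals, with a gene length, for 50508 symbols. The submitters' processing notes list STAR 2.4.0i, featureCounts 1.5.0-p1 and mm10; which annotation, strand setting and rule for multiply mapped reads applied is not given in the sources used here. GENCODE M21 (GRCm38) held 94.3% of symbols and all 35 import genes; 28 of these had the deposited length, so the authors' gene models differ for 7.

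FPKM times length of genes under 400 bases fell on whole reads in each library (100% of 3121 and 3560 values below 30 reads, within rounding plus 0.005 reads), with denominators of 28460000 and 27820000 reads. Rebuilt reads served for intervals; for long genes they are approximate. Differences used a pseudocount of 1 and a mean of at least 1 FPKM. Copies were sought with blastn 2.17.0 (at least 95% identity over 100 bases). Code ran in Python 3.11.15 with numpy 2.4.6, scipy 1.17.1 and pandas 2.3.3, and was tested on simulated data. RefSeq promoters (GRCm38.p6) matched 31 of the 35 genes. Each import gene is accounted for; intervals are given for the 8 largest differences at a mean of at least 5 FPKM and for pairs, and 6 companions are named by the same measure. The genes, lists, pairs and motifs were chosen with earlier results of these data known. Alternatives were another pseudocount, 2 scalings, other filters and folds.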

Additional observations from a re-analysis of the deposited data

How the results depend on the processing

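No paired analysis was possible because each group holds 1 library. The median difference of the import genes, 0.06 as reported, was 0.14 after scaling both libraries to 1 FPKM sum, 0.025 with the median of abundant protein-coding genes set to 0, and 0.020 without the 10 genes that have exon overlap of at least 10% or a copy matching at least 20% of the transcript (chosen after seeing the data). The median size of a difference, 0.08, was 0.14 with the same FPKM sum. The companions' median, 0.05, was 0.13 and 0.022 under these scalings. The 1 import gene higher by 1.2-fold, Immp1l, became 2 with a pseudocount of 0.1, 4 with the same FPKM sum, 9 at 1.1-fold, 0 at 1.5-fold and 0 without those 10 genes, of which it is one. The 0 lower became 1 at 1.1-fold. The Mettl8 difference, 5.92, was 7.03 with a pseudocount of 0.1. The median share of the main gene of a pair, 79.7%, was 72.7% in reads not divided by length. Both scalings multiply all genes of a library by the same factor, but on the log2(FPKM + 1) scale low genes shift less. With the same sum, Tomm70a went from 0.064 to 0.156 and the low gene Tomm20l from -0.054 to -0.032. None of 35 gene values moved beyond its counting interval with the median set to 0, and 4 did with the same sum. The depth limits genes such as Immp2l, whose ratio interval spans 0.578 to 1.26, and the cause of no shift was tested.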
